A study of Mus musculus with 24 samples.

Results

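The 7 genes tied to glucocorticoid signalling were followed through whole lungs and retinas of newborn mice. They are Zbtb16, Fkbp5, Tsc22d3, Sgk1, Nr3c1, Hsd11b1 and Klf9, chosen by symbol, and all 7 were present among the 36109 genes listed for the lung and the 36595 listed for the retina. Zbtb16 was chosen because its transcript was much lower in hyperoxic lungs, so its lung values are described here without a test. The other 6 genes were chosen for their known response to, or role in, glucocorticoid signalling, but with earlier results of these data known. The gene lists read beside them were also chosen with those results known, so counts of either against all genes are a description.

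The 24 samples were 12 lungs and 12 retinas, with 4 groups of 3 mice per tissue. Wild-type (WT) pups and their littermates homozygous for a knockout (KO) of gasdermin D, the pore-forming protein of pyroptosis, came from heterozygous parents on a C57/B6 background, and the KO allele is a CRISPR/Cas9 deletion of 38 bp in exon 5 that is carried in every cell. Lungs came from pups kept in room air (RA, 21% oxygen) or in hyperoxia (O2, 85% oxygen) from postnatal day 1 to day 14 and were taken on day 15. Retinas came from pups kept in 75% oxygen from day 7 to day 12 and then returned to room air, or in room air from day 1 to day 17, and were taken on day 18, so the hyperoxic retinas had been back in room air when they were collected. The groups are written WT-RA, WT-O2, KO-RA and KO-O2, and each mouse is named by its label. Each sample was a separate mouse, and no label gives litters, so p-values measure the spread between these mice.

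Glucocorticoids act through the glucocorticoid receptor, a nuclear receptor encoded by Nr3c1 that leaves its chaperones when it binds hormone and then moves to the nucleus. Within cells, the enzyme 11β-hydroxysteroid dehydrogenase type 1, encoded by Hsd11b1, regenerates active hormone from its inert 11-keto form. Zbtb16 (the zinc finger repressor PLZF), Fkbp5 (a co-chaperone that dampens the receptor), Tsc22d3 (the anti-inflammatory protein GILZ), Sgk1 (a kinase that promotes sodium transport) and Klf9 (a transcription factor that represses proliferation) are widely used target genes. In the perinatal lung this pathway is known for promoting thinning of the septa and surfactant production.

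The receptor binds a palindrome of half-sites separated by 3 bases. Promoter sequences from RefSeq (GRCm38.p6) were read for 5 of the 7 genes, not for Zbtb16 or Nr3c1, in 12 windows of 250 bases before a transcription start. They were searched on both strands for the palindrome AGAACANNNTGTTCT and for its half-site AGAACA. The palindrome was found in 1 of the 12 windows, before a start of Sgk1, where it began 189 bases upstream. Over all 32851 windows of this length it was found in 3, or 0.00913%. The half-site was found in 4 of the 12 windows, belonging to Sgk1 and Tsc22d3, and in 16.1% of all windows. The palindrome contains the half-site on each strand, so the Sgk1 window counts in both searches. These 3 windows are printed 5′ to 3′ as examples, the one with the palindrome, one of Tsc22d3 with a half-site, and that of Fkbp5 with neither. The other windows of Tsc22d3 and some of Sgk1 had no half-site. Whether a match goes with a gene's change in the lung was not tested. Capitals mark the palindrome in Sgk1 and the half-site in Tsc22d3, and the Tsc22d3 window stops where an annotated untranslated exon begins.
Sgk1, chr10:21993640-21993889, plus strand: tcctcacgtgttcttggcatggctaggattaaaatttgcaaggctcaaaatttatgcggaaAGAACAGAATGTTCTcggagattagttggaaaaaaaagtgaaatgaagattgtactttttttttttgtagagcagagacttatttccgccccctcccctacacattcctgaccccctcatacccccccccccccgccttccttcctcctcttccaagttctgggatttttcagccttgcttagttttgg
Tsc22d3, chrX:140600660-140600772, minus strand: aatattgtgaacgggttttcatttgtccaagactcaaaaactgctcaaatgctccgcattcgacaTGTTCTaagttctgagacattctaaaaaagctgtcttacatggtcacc
Fkbp5, chr17:28486150-28486399, minus strand: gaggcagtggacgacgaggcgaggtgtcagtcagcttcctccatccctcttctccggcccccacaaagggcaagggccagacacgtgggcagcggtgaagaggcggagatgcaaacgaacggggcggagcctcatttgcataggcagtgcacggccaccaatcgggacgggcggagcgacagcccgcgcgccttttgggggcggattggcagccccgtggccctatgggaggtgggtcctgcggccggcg
A match of letters is a description of the window only, and a window without a match says nothing of sites elsewhere.

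Library totals were 28.8 to 29.6 M counts in the lung and 24.9 to 29.1 M in the retina. Counting error therefore matters mainly for transcripts with few counts, Zbtb16 in KO-O2 lungs and in retinas and Hsd11b1 in retinas. The labelled tissues carried their markers, with surfactant and other alveolar type 2 genes summing to 15700 to 26100 CPM (counts scaled by TMM to a common library size) in each lung and photoreceptor genes to 51100 to 75700 CPM in each retina. Gsdmd itself stood at 40.6 to 42.3 CPM in WT-RA lungs, 32.1 to 36.4 in WT-O2, 22.6 to 24.8 in KO-RA and 11.7 to 16.3 in KO-O2, so every KO lung was below every WT lung. Retinal Gsdmd overlapped between genotypes and did not check the labels. Y-linked transcripts were found in 3 KO-O2, 2 KO-RA and 1 WT-O2 lungs but in 0 WT-RA lungs, and in 3 retinas of each room-air group but 1 of each hyperoxic group, so the sexes were not balanced over the groups. In bulk tissue, a lower level from fewer expressing cells and one from less RNA per cell cannot be told apart.

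One room-air lung stood apart from its group. WT-RA mouse GSD400 was the lowest of its group for 7 of the 7 genes and for 32 of 35 other glucocorticoid-induced genes tested, whereas it was the lowest of its group for 41.8% of all 16819 genes tested in the lung. Its Zbtb16 level was 13.4-fold below the mean of the other 2 WT-RA lungs, its Tsc22d3 level 3.05-fold, its Fkbp5 level 2.65-fold, and its Nr3c1 level 1.09-fold. KO-RA mouse GSD490 was the lowest of its group for 6 of the 7 genes and for 24 of the 35, against 33.3% of all genes, with Tsc22d3 2.37-fold and Zbtb16 1.5-fold below the other 2. GSD490 was also the KO-RA lung without Y-linked transcripts, at 3.31 CPM against 108 and 158 CPM in the other 2. The part of sex in its values was not tested. Marker sums in GSD400 were the lowest of its group for alveolar type 2 genes, at 22500 CPM (23800 and 26100 in the others), alveolar type 1 genes, at 4810 (5400 and 5820), macrophage genes, at 2240 (2670 and 3190), and T, NK and innate lymphoid genes, at 112 (137 and 140). They were within or above the others for endothelial genes, at 5880 (5810 and 6240), and fibroblast genes, at 10000 (8550 and 9080). Heart muscle genes summed to 168 CPM in GSD400 and to 306 and 375 CPM in the other WT-RA lungs. The part of these cells in its values was not tested. Values that change their sign or their side of the threshold in hyperoxia against room air without GSD400 are given both ways.

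**Figure D1:**
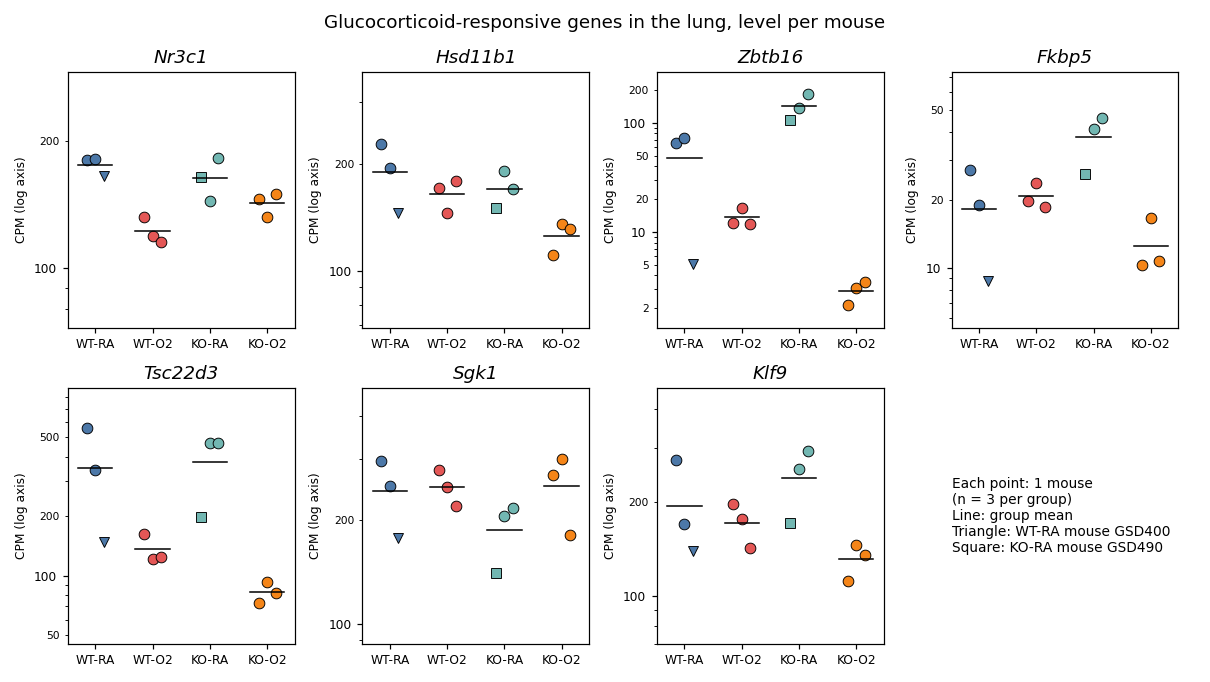
Level of each gene in each lung, in CPM on a log axis, for the 4 groups of 3 mice, with a line at the group mean. Zbtb16 spans 2.13 to 182 CPM, and the triangle, WT-RA mouse GSD400, is the lowest of the WT-RA lungs in each of the 7 panels.

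The receptor gene Nr3c1 was lower in hyperoxic WT lungs. It was measured at 180, 182 and 166 CPM in WT-RA lungs and at 132, 120 and 116 CPM in WT-O2 lungs, and the groups did not overlap. The log2 fold change was −0.52 ± 0.094 (SE, n = 3 per group), and Nr3c1 fell with an adjusted p of 0.000488 in edgeR's quasi-likelihood test, a change of 1.44-fold that stays under the 2-fold limit set for a call. In KO lungs it was measured at 165, 144 and 183 CPM in RA and 146, 132 and 150 CPM in O2, and these groups overlapped. The log2 fold change in KO lungs was −0.20 ± 0.094, with an adjusted p of 0.104, and without GSD400 that p was 0.0856. The difference between both changes was 0.32 ± 0.13 with an adjusted p of 0.682, so it was not shown that the genotypes differed.

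Hsd11b1, the enzyme that regenerates hormone, stood at 228, 196 and 146 CPM in WT-RA lungs and at 171, 145 and 179 CPM in WT-O2 lungs, and these groups overlapped. In KO-RA lungs it was measured at 151, 192 and 170 CPM, and in KO-O2 lungs at 110, 136 and 131 CPM. All 3 KO-O2 lungs were below all KO-RA lungs, and Hsd11b1 fell in KO lungs by 0.44 on the log2 scale (SE 0.148, adjusted p = 0.0307 in edgeR's quasi-likelihood test). Its change in WT lungs was −0.20 ± 0.15 with an adjusted p of 0.297, and without GSD400 that p was 0.0281. Its adjusted p in KO lungs was above 0.1 without either of 2 mice, KO-O2 mouse GSD061 (adjusted p = 0.116) or KO-RA mouse GSD496 (adjusted p = 0.12).

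Zbtb16, on chr9:48654297-48836222 of GRCm38 (minus strand), ranged from 2.13 to 182 CPM in the lung. Its level was 64.7, 72 and 5.09 CPM in WT-RA lungs and 12.2, 16.7 and 11.8 CPM in WT-O2 lungs. GSD400, at 5.09 CPM, was below every WT-O2 lung, so the WT groups overlapped. In KO-RA lungs it was 106, 138 and 182 CPM and in KO-O2 lungs 2.13, 3.04 and 3.51 CPM, groups far apart, with 3115 to 5374 counts per library in the first and 61 to 105 in the second. As a description of the values that led to its choice, the log2 fold change in hyperoxia was −1.80 ± 0.75 in WT and −5.61 ± 0.91 in KO, or 3.48-fold and 48.9-fold lower. Without GSD400 the WT value was −2.33, and with each mouse left out in turn it ranged from −2.33 to −1.36. Among the 16819 genes, ordered from the largest fall, Zbtb16 was at place 375 in WT, between Gm6018 (−1.80) and H2-T24 (−1.80), and at place 10 in KO, between Wfdc6b (−5.66) and Wfdc8 (−5.52).

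By group mean, lung Zbtb16 ran from 142 ± 38.1 CPM in KO-RA through 47.3 ± 36.7 in WT-RA and 13.6 ± 2.73 in WT-O2 to 2.90 ± 0.701 in KO-O2 (SD, n = 3). KO-RA did not overlap with WT-RA, nor WT-O2 with KO-O2, while WT-RA and WT-O2, neighbours in this order, did. The log2 difference between genotypes was −2.22 ± 0.89 for KO-O2 against WT-O2 and 1.59 ± 0.71 for KO-RA against WT-RA, and without GSD400 they were −2.23 and 1.05. The change in KO minus that in WT was −3.81 ± 1.14, and −3.28 without GSD400. These differences use the lung values that led to the choice of Zbtb16, so they are a description.

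PLZF is needed by innate-like T cells and innate lymphoid progenitors, so markers of T, NK and innate lymphoid cells were read beside it. Of 12 such genes tested, 7 fell and 0 rose in WT hyperoxic lungs and 8 fell and 0 rose in KO, where 24.7% and 23.4% of all genes fell. Their summed level was 112 to 140 CPM in WT-RA, 85.8 to 102 in WT-O2, 118 to 128 in KO-RA and 92.6 to 102 in KO-O2. The part of these cells in the Zbtb16 values was not tested. Of 9 red cell genes tested, 9 fell in WT hyperoxic lungs and 3 fell in KO, and 0 rose, where 24.7% and 23.4% of all genes fell. Between the hyperoxic groups 0 of 9 passed, where 0.0416% of all genes did. Their sum was 2920 to 4150 CPM in WT-O2 and 5970 to 29900 CPM in KO-O2. Liver genes reached 188 CPM in KO-O2 mouse GSD061 against 2.98 to 44.1 CPM in the other lungs.

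Fkbp5 was measured at 27.2, 19.1 and 8.74 CPM in WT-RA lungs and 19.8, 23.7 and 18.7 CPM in WT-O2 lungs, with GSD400 lowest and the groups overlapping. Its log2 fold change in WT was 0.18 ± 0.38 with an adjusted p of 0.737, and without GSD400 it was −0.15. Leaving out each mouse in turn gave −0.15 to 0.58. In KO lungs it stood at 26.1, 41.2 and 46.0 CPM in RA and 10.4, 16.6 and 10.7 CPM in O2. All KO-O2 lungs were below all KO-RA lungs, and Fkbp5 fell by 1.59 on the log2 scale, or 3.01-fold (SE 0.382, adjusted p = 0.00892 in edgeR's quasi-likelihood test). The difference between both changes was −1.77 ± 0.53, with an unadjusted p of 0.00853 and an adjusted p of 0.544, so a different response in KO lungs was not shown once all genes were allowed for.

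Of the 6 genes tested for hyperoxia in the lung, Tsc22d3 was the one called in both genotypes. Its levels were 555, 344 and 147 CPM in WT-RA lungs and 163, 121 and 124 CPM in WT-O2 lungs. GSD400 fell within the WT-O2 range, so the WT groups overlapped. Tsc22d3 fell in WT by 1.36 on the log2 scale, or 2.56-fold (SE 0.475, adjusted p = 0.048 in edgeR's quasi-likelihood test), and the call was lost without WT-RA mouse GSD398 (log2 fold change −0.85, adjusted p = 0.178), WT-O2 mouse GSD405 (0.123) or WT-O2 mouse GSD406 (0.124). In KO lungs the levels were 197, 467 and 466 CPM in RA and 72.4, 92.9 and 81.8 CPM in O2. GSD490, at 197 CPM, was the lowest KO-RA lung and still above every KO-O2 lung, and Tsc22d3 fell by 2.19, or 4.57-fold (SE 0.489, adjusted p = 0.00709).

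Sgk1, which has the palindrome printed above before 1 of its several starts, was measured at 296, 251 and 177 CPM in WT-RA lungs and at 278, 248 and 219 CPM in WT-O2 lungs. Counts per gene do not tell which start was used. KO-RA lungs had 140, 205 and 216 CPM and KO-O2 lungs 270, 300 and 181 CPM. The groups overlapped in both genotypes. The log2 fold change was 0.04 in WT (95% interval −0.47 to 0.55, adjusted p = 0.909, and −0.14 without GSD400) and 0.42 in KO (−0.09 to 0.93, adjusted p = 0.178). With DESeq2 the KO value was 0.43 with an adjusted p of 0.0959. Without KO-O2 mouse GSD493 the KO value in edgeR was 0.61 with an adjusted p of 0.0491. Klf9 stood at 274, 170 and 139 CPM in WT-RA and 197, 176 and 142 CPM in WT-O2, and at 171, 256 and 292 CPM in KO-RA and 112, 146 and 135 CPM in KO-O2. The WT groups overlapped (log2 fold change −0.18 ± 0.26, adjusted p = 0.624), and the KO groups did not. With each mouse left out in turn, the WT value of Klf9 ranged from −0.36 to 0.15. Klf9 fell in KO lungs by 0.87, or 1.83-fold (SE 0.263, adjusted p = 0.0238), which stays under the 2-fold limit.

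Counted together, without Zbtb16, 1 of 6 genes was called in WT hyperoxic lungs (adjusted p under 0.1, p under 0.05 and at least 2-fold), where 11.6% of all genes were called. In KO hyperoxic lungs it was 2 of 6, where 10.6% were called. By adjusted p alone, 2 of 6 fell and 0 rose in WT, against 24.7% of all genes that fell, and 4 of 6 fell and 0 rose in KO, against 23.4%. The groups did not overlap for 1 of 6 in WT and 4 of 6 in KO, against 49.8% and 52.4% of all genes, and these shares of 6 genes were not read as a result about the group. For KO-O2 against WT-O2, 0 of 6 were called in edgeR, where 0.0238% of genes were, 2 had an unadjusted p under 0.05 (6.21% of all genes), 3 did not overlap (12.2%), and DESeq2 also called 0. For KO-RA against WT-RA, 0 of 6 were called, where 0.137% of genes were, with 1 at an unadjusted p under 0.05 (10.5%), 0 without overlap (15.2%) and 0 called by DESeq2. The interaction of genotype and hyperoxia passed for 0 of 6 in edgeR, where 0.00595% of genes passed, with 2 at an unadjusted p under 0.05 (6.72%), and for 0 of 6 in DESeq2.

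**Figure D2:**
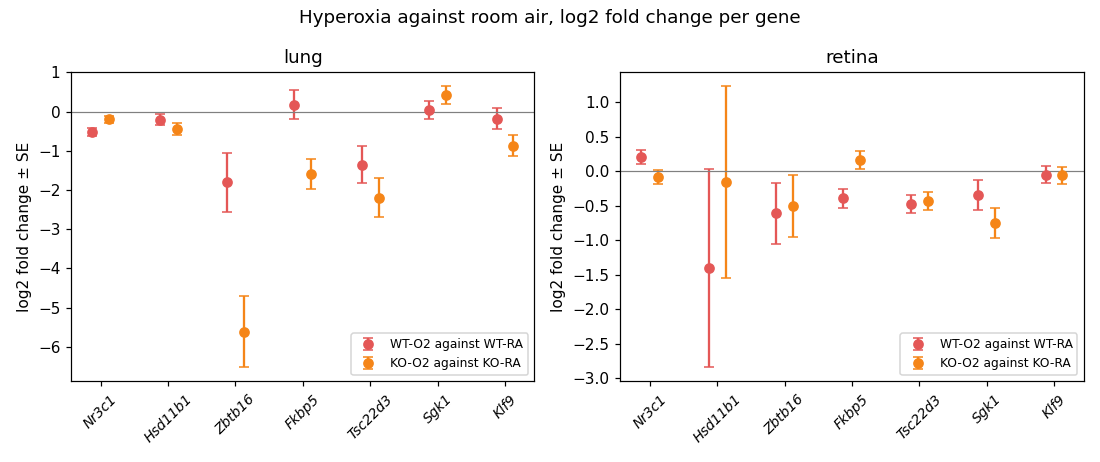
Log2 fold change of each gene in hyperoxia against room air with its SE, for WT (red) and KO (orange), in the lung and, on its own axis, in the retina. In the lung, Zbtb16 at −5.61, Tsc22d3 at −2.19 and Fkbp5 at −1.59 lie lowest in KO, while in WT Fkbp5 lies near 0.

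Within groups, the target genes moved together from lung to lung. Each lung's deviation from its group mean, on the scale of log2(CPM + 1), was compared over the 12 lungs as a description with no test, since lungs of 1 group share that mean. The correlation with the deviation of Zbtb16 was 0.84 for Fkbp5, 0.79 for Tsc22d3, 0.71 for Hsd11b1, 0.61 for Klf9, 0.57 for Sgk1 and 0.36 for Nr3c1. Fkbp5 and Tsc22d3 had 0.91, and Tsc22d3 and Klf9 0.91. In the 9 lungs outside the WT-RA group, these values were 0.72 for Zbtb16 with Fkbp5, 0.57 with Tsc22d3, 0.76 with Klf9, 0.21 with Sgk1 and 0.19 with Hsd11b1 and with Nr3c1, and 0.76 and 0.90 for the last 2 pairs. In the lung, Fkbp5 and Klf9 thus stayed near Zbtb16 in both readings, while Hsd11b1 and Sgk1 were near it mainly through the WT-RA group. The 9 lungs still include GSD490, the lowest of its group for 6 of the 7 genes. Correlations without both low mice were not computed, so the part of GSD490 in these values is not known. Over the 12 retinas, where Zbtb16 was low, its within-group correlation was 0.791 with Fkbp5, 0.361 with Tsc22d3 and 0.324 with Hsd11b1. It was 0.0391 with Sgk1, −0.665 with Nr3c1 and −0.808 with Klf9.

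**Figure D3:**
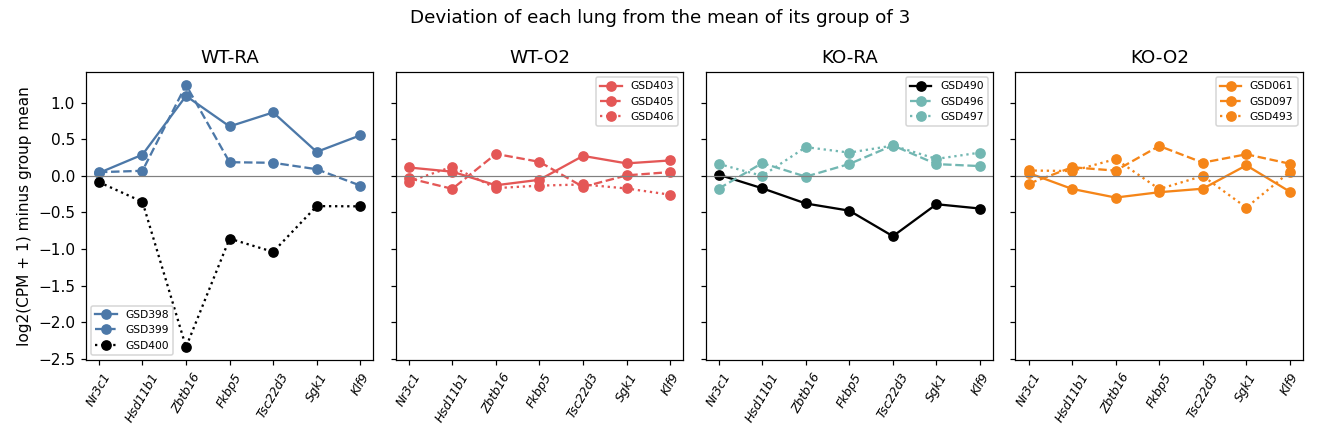
Deviation of each lung from the mean of its group, in log2(CPM + 1), for the 7 genes, with 1 line per mouse. GSD400 in WT-RA and GSD490 in KO-RA, drawn in black, lie below their groups for the target genes, with GSD400 at −2.34 for Zbtb16, and Nr3c1 stays near 0 in both.

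The genes most like Zbtb16 over the 12 lungs, by Pearson's correlation of log2(CPM + 1) among the 12186 genes averaging 5 CPM or more, were Hif3a (0.963), Kyat1 (0.955), Rmdn2 (0.949), Il7r (0.942) and Trim14 (0.941). Hif3a encodes a hypoxia-inducible factor subunit and is also on the list of glucocorticoid-induced genes. Hif3a fell by 1.52 ± 0.48 in WT and fell by 3.40 ± 0.52 in KO. Likeness over all 12 lungs includes the differences between groups, and Zbtb16 was chosen for its fall, so these falls are a description. By deviations from group means, the 5 most like Zbtb16 were Papss2 (0.957), Rmdn2 (0.956), Igf2bp2 (0.949), Serpina3n (0.944) and Gdpd2 (0.943), and outside the WT-RA group these ranged from 0.453 for Rmdn2 to 0.704 for Igf2bp2. Of 35 other glucocorticoid-induced genes, 23 had a within-group correlation above 0.5 with Zbtb16, against 18.1% of all genes, and outside the WT-RA group 13 did, against 11.8%. The lungs outside WT-RA still include GSD490, the lowest of its group for 24 of these 35 genes.

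The other 35 glucocorticoid-induced genes that were tested did not move one way in hyperoxic lungs. In WT, 8 rose and 9 fell, with a median log2 fold change of −0.13, against −0.01 over all genes, of which 24.5% rose and 24.7% fell. In KO, 6 rose and 13 fell, with a median of −0.33, against −0.01 over all genes, of which 23.3% rose and 23.4% fell. Cdkn1a, the cyclin-dependent kinase inhibitor p21 and also a p53 target, rose by 3.71 ± 0.26 in WT and 3.50 ± 0.26 in KO, and Lcn2, a secreted iron-binding protein of inflammation, by 1.93 ± 0.15 and 2.32 ± 0.16. Cdkn1c, the growth inhibitor p57, fell by 1.70 ± 0.092 in WT and by 1.61 ± 0.092 in KO, and Sesn1, a stress-response sestrin, by 1.15 ± 0.12 and by 1.38 ± 0.12. Each of these 4 had an adjusted p of at most 2.67e-06. None of the 35 passed in either genotype comparison or in the interaction in edgeR, where 4 with the smallest p in KO-O2 against WT-O2 (Plin4, Bcl6, Cebpb and Klf15) had adjusted p from 0.707 to 0.797.

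Genes that glucocorticoids repress, which are mostly inflammatory mediators, rose in hyperoxic lungs of both genotypes. Of 12 tested, 10 rose and 0 fell in WT with a median log2 fold change of 1.54, and 10 rose and 0 fell in KO with a median of 1.75, where 24.5% and 23.3% of all genes rose. This list was drawn up with earlier results of these data known, so the count is a description and not independent support. Ccl2, a monocyte chemokine, rose by 4.29 ± 0.23 in WT and 4.82 ± 0.25 in KO, and Cxcl10, an interferon-induced chemokine, by 2.61 ± 0.21 and 3.28 ± 0.22. Icam1, an adhesion molecule for leukocytes, rose by 1.00 ± 0.074 and 1.23 ± 0.075. Of 9 macrophage markers read beside them, 7 rose and 1 fell in WT, and 8 rose and 1 fell in KO. Their summed level was nonetheless 2040 to 2180 CPM in WT-O2 against 2240 to 3190 in WT-RA, and 1740 to 1990 in KO-O2 against 2370 to 2540 in KO-RA. The part of macrophages in the values of the repressed genes was not tested.

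Among the chaperones and cofactors of the receptor, 8 of 20 rose and 3 fell in WT, and 6 rose and 2 fell in KO, against 24.5% of all genes that rose and 24.7% that fell in WT and 23.3% and 23.4% in KO. Smarca4, the ATPase of the SWI/SNF remodeller, rose by 0.51 ± 0.093 in WT and 0.36 ± 0.093 in KO. Of 9 tested genes of steroid production, metabolism and transport, 4 rose and 4 fell in WT, where 24.5% of all genes rose and 24.7% fell. In KO 2 rose and 3 fell, where 23.3% of all genes rose and 23.4% fell. Abcb1b, a P-glycoprotein that exports steroids, rose by 3.36 ± 0.23 in WT and 3.09 ± 0.23 in KO, and Hsd11b2, the enzyme that inactivates glucocorticoids, fell by 1.65 ± 0.26 and by 1.30 ± 0.26.

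In the retina Zbtb16 was a low transcript with a narrow range. It was measured at 3.72, 1.91 and 3.04 CPM in WT-RA retinas, 2.19, 1.34 and 2.14 in WT-O2, 1.08, 4.24 and 2.78 in KO-RA and 1.6, 1.61 and 2.51 in KO-O2. The groups overlapped in every comparison. Its log2 fold change in hyperoxia was −0.61 ± 0.45 in WT (95% interval −1.59 to 0.37) and −0.50 ± 0.45 in KO (−1.48 to 0.48), with adjusted p of 0.534 and 0.581. Hsd11b1 was near its limit of detection, with 0 to 34 counts per retina and 0 counts in 1 WT-O2 and 1 KO-O2 retina. A count of 0 there allows up to 3 counts, so no change of Hsd11b1 could be read in the retina.

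Tsc22d3 was lower in hyperoxic retinas of both genotypes. It was measured at 45.8, 34.1 and 32.9 CPM in WT-RA, 29.4, 24.2 and 27.8 in WT-O2, 39.5, 38.5 and 40.1 in KO-RA and 31.1, 26.7 and 30.2 in KO-O2. The hyperoxic and room-air groups did not overlap in either genotype, which held for 24% of all genes in WT and 26.2% in KO. Tsc22d3 fell by 0.47 ± 0.13 in WT (adjusted p = 0.0876) and by 0.43 ± 0.13 in KO (adjusted p = 0.0949), in edgeR's quasi-likelihood test. Both values are close to the threshold of 0.1 and were lost in 13 of 19 other settings each.

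Sgk1 was at 75.2, 80.5 and 72.3 CPM in WT-RA retinas and 52.7, 70.0 and 57.0 in WT-O2, and at 60.7, 64.7 and 117 in KO-RA and 43.4, 52.8 and 48.5 in KO-O2. KO-RA mouse GSD304 was the highest at 117 CPM. Sgk1 fell in KO by 0.75 ± 0.22 (adjusted p = 0.0816), and without GSD304 the value was −0.38 with an adjusted p of 0.178. The fall in KO no longer passed in 12 of 19 other settings. Its change in WT was −0.34 ± 0.22 with an adjusted p of 0.449, although the WT groups did not overlap. GSD304 was 1 of 3 retinas, all in room air, rich in lens genes, which summed to 22200 CPM in GSD304 and to 16100 and 55000 CPM in WT-RA mice GSD382 and GSD383, against 2.91 to 267 CPM in the other 9. Pigment epithelium and choroid genes were also highest in GSD304, at 1960 CPM against 151 to 576. Without the 3 lens-rich retinas, which leaves 1 WT-RA retina, assumed to vary like the other groups, Sgk1 had an adjusted p of 0.224 in KO and Tsc22d3 one of 0.0524 in WT and 0.131 in KO.

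Fkbp5 differed between genotypes in hyperoxic retinas. It was measured at 18.8, 16.2 and 16.7 CPM in WT-RA, 11.9, 12.9 and 14.6 in WT-O2, 15, 19.9 and 17 in KO-RA and 18, 18.5 and 21.7 in KO-O2. All WT-O2 retinas were below all others. Fkbp5 was higher in KO-O2 than in WT-O2 by 0.56 ± 0.13 on the log2 scale, or 1.48-fold (adjusted p = 0.0987), and this was lost in 14 of 19 other settings, with 0.193 without the lens-rich retinas. Against room air its change was −0.39 ± 0.13 in WT (adjusted p = 0.152) and 0.16 ± 0.13 in KO (0.529), and the interaction had an adjusted p of 0.313.

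Nr3c1 and Klf9 did not pass in any comparison of the retina. Nr3c1 stood at 18.7, 20.5 and 22.3 CPM in WT-RA, 23.8, 25 and 22.3 in WT-O2, 27.7, 24.0 and 27.0 in KO-RA and 25, 26.4 and 22.9 in KO-O2. All KO-RA retinas were above all WT-RA retinas (log2 difference 0.36 ± 0.10, unadjusted p = 0.00424, adjusted p = 0.24 in edgeR, and 0.0687 in DESeq2). Klf9 ranged from 68.5 to 107 CPM over the 12 retinas, and its changes in hyperoxia were −0.05 ± 0.12 in WT and −0.06 ± 0.12 in KO.

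Of the 7 genes, 0 were called at 2-fold in edgeR in any retinal comparison, where 2.04% of genes were called for hyperoxia in WT, 2.19% in KO, 0.292% for KO-O2 against WT-O2 and 0.00522% for KO-RA against WT-RA. DESeq2 also called 0 at 2-fold. The genes with an unadjusted p under 0.05 numbered 2 of 7 for hyperoxia in WT (17.4% of all genes), 2 in KO (20.3%), 1 for KO-O2 against WT-O2 (12.6%) and 1 for KO-RA against WT-RA (12.7%). Groups did not overlap for 4 of 7 in WT (24% of all genes) and 2 in KO (26.2%). The same held for 1 in KO-O2 against WT-O2 (19.9%) and 2 in KO-RA against WT-RA (17.7%). These shares of 7 genes were not read as a result about the group. By adjusted p alone, 1 of 7 fell in WT and 2 of 7 fell in KO, where 2.05% and 3.44% of genes fell, and 1 of 7 was higher in KO-O2 than in WT-O2, where 0.569% of genes were. The interaction passed for 0 of 7 in edgeR, where 0.00522% of genes passed, and 0 in DESeq2, with 1 at an unadjusted p under 0.05 (10.6%).

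**Figure D4:**
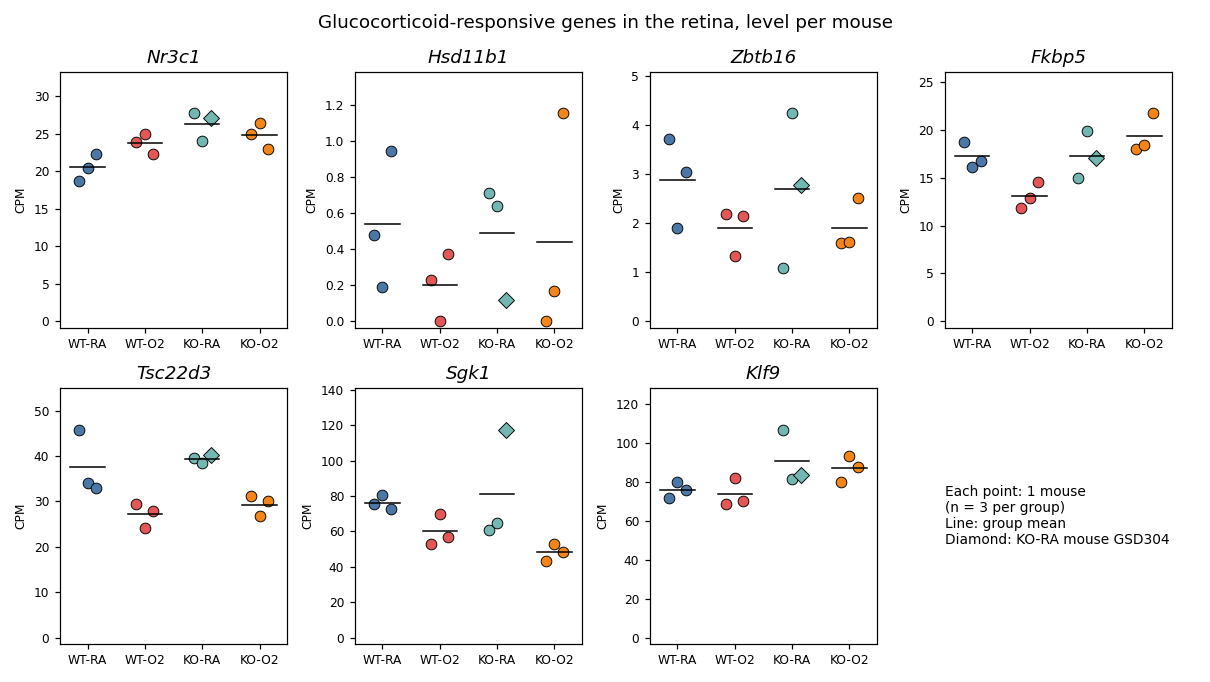
Level of each gene in each retina, in CPM on linear axes from 0, for the 4 groups of 3 mice, with a line at the group mean. The 3 WT-O2 retinas are the lowest for Fkbp5, the diamond, KO-RA mouse GSD304, is the highest for Sgk1, and Zbtb16 stays between 1.08 and 4.24 CPM.

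Of 34 other glucocorticoid-induced genes in the retina, 5 rose and 3 fell in WT and 5 rose and 0 fell in KO, with medians of 0.02 and 0.09. Over all genes, 3.11% rose and 2.05% fell in WT, and 4.38% rose and 3.44% fell in KO. Cebpd, a transcription factor of acute inflammation, rose by 2.23 ± 0.34 in WT and 1.35 ± 0.34 in KO (adjusted p = 0.00753 and 0.0495), and Fam107a, an actin-binding stress gene, fell by 1.84 ± 0.32 in WT (adjusted p = 0.0144). Of 7 repressed genes, 3 rose in WT and 1 in KO and 0 fell, with medians of 1.55 and 0.89. Ccl2 rose by 2.88 ± 0.81 and 3.06 ± 0.86 (adjusted p = 0.0914 and 0.0743). Macrophage markers read beside them summed to 86.8 to 127 CPM in WT-O2 and 75.1 to 113 in KO-O2, above the 36.8 to 58.8 CPM of WT-RA and 32.4 to 49.5 of KO-RA, and their part was not tested. Of 20 chaperones and cofactors of the receptor, 0 passed in either genotype in edgeR.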

How the data were processed

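Bulk RNA was sequenced from 12 lungs and 12 retinas, 1 mouse per sample. The authors quantified reads with kallisto and summarised transcripts to genes with tximport, and deposited 1 table of expected counts per tissue. Versions and tximport settings are not given in the sources used here. The submitters' processing notes name mm10, whereas the study's methods name a later mouse assembly, so positions from GRCm38 annotation serve only to place genes. Of the nonzero deposited expected counts, 44.9% (lung) and 0.35% (retina) lay within 0.001 of a whole number, so the retinal values may have been scaled, and tissues were tested apart. A treatment text in the labels describes cultured cells and was not used.

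Counts were rounded and tested with edgeR 4.0.16 (robust quasi-likelihood, TMM scaling, filterByExpr, all 4 groups of a tissue in 1 fit; limma 3.58.1, R 4.3.3). This left 16819 lung and 19173 retinal genes, over which p-values were adjusted by the Benjamini-Hochberg method. A gene rose or fell at an adjusted p under 0.1, and was called when p was also under 0.05 and the change at least 2-fold. Zbtb16, chosen on its lung values, was left out of lung counts. All 7 genes were named, with the listed genes of smallest p and the 5 genes most like Zbtb16. The 7 genes and the lists were chosen with earlier results of these data known. The fit was also run on simulated counts. These had the same variability setting for every gene and no outlying mouse, so they do not check it for mice such as GSD400. Alternatives were DESeq2 1.42.0, limma-voom, RLE scaling, no filter, only the 2 groups compared, a Y-linked covariate, each mouse left out and, added after seeing the data, the lens-rich retinas left out. Y-linked transcripts counted as present above 20 CPM and retinas as lens-rich above 1000 CPM. Figures used matplotlib 3.10.9 in Python 3.11.15.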

Additional observations from a re-analysis of the deposited data

How the results depend on the processing

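No paired analysis was possible because the labels give no replicate numbers, so mice were numbered in accession order only. Among values of single genes, lung Zbtb16 excepted, 0 that passed changed direction. The 6 that passed in the lung held in 103 of 108 recomputations and the 4 in the retina in 24 of 76, so the retinal results are weak. Some of these recomputations left out a mouse of a group not compared, so the compared mice were unchanged. Of the 5 lost in the lung, 3 were of Tsc22d3 in WT and 2 of Hsd11b1 in KO. With DESeq2, genes called numbered 32 in the lung for KO-O2 against WT-O2 (4 in edgeR), 70 for KO-RA against WT-RA (23) and 110 for the interaction (1). In the retina DESeq2 called 635 for hyperoxia in WT (391), 658 in KO (420), 164 for KO-O2 against WT-O2 (56), 63 for KO-RA against WT-RA (1, with 1 of the 7 past) and 547 for the interaction (1). Limma-voom gave 0 for the lung interaction. Without the filter that count was 2, and 0 of the 7 passed in the retina in WT, KO or KO-O2 against WT-O2. With only the 2 groups compared, the lung had 8 genes called for KO-O2 against WT-O2 and 10 for KO-RA against WT-RA. In the retina that fit passed 0 of the 7 in WT, 1 in KO and 0 for KO-O2 against WT-O2, and called 0 genes for KO-RA against WT-RA. The Y-linked covariate gave 2 lung genes for KO-O2 against WT-O2, 0 for KO-RA against WT-RA, 0 for the interaction, and 0 of the 7 in the retina in WT, KO and KO-O2 against WT-O2. RLE scaling passed 0 for the last. Without the lens-rich retinas, 0 of the 7 passed in KO and 0 for KO-O2 against WT-O2, with 27 genes called there, 0 for KO-RA against WT-RA, and 0 for the interaction. The cause of these shifts was not tested.

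Leaving out each mouse gave, in the lung, 1865 to 2069 genes called for hyperoxia in WT, with 0 to 1 of the 6 genes other than Zbtb16 called and 1 to 3 past, and 1692 to 1855 in KO, with 2 to 3 called and 3 to 6 past. It gave 1 to 23 genes for KO-O2 against WT-O2, 1 to 109 for KO-RA against WT-RA (109 without GSD400) and 0 to 45 for the interaction (45 without GSD400), with 0 of the 6 called or past in each. In the retina it gave 196 to 504 genes in WT with 0 to 1 past, 151 to 439 in KO with 0 to 2 past, 6 to 83 for KO-O2 against WT-O2 with 0 to 1 past, 0 to 1 for KO-RA against WT-RA and 0 to 340 for the interaction, with 0 past in both.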

Other observations

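The circadian clock genes, several of which respond to glucocorticoids, were read beside the 7 genes. Of 19 tested in the lung, 6 rose and 3 fell in WT hyperoxia and 6 rose and 5 fell in KO in edgeR's quasi-likelihood test, where 24.5% of all genes rose and 24.7% fell in WT and 23.3% and 23.4% in KO. Bhlhe40, a clock repressor also induced by stress, rose by 1.86 in WT and 1.87 in KO on the log2 scale, and Hlf, a clock output factor, fell by 1.83 in WT and fell by 2.02 in KO. The hour of collection is not given in the sources used here. In the retina, 1 of 19 rose and 0 fell in WT and 2 rose and 0 fell in KO, where 3.11% and 4.38% of all genes rose.

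Of 23 lung paralogs of the 7 genes, 5 rose and 11 fell in WT hyperoxia, where 24.5% of all genes rose and 24.7% fell. In KO 4 rose and 13 fell, where 23.3% of all genes rose and 23.4% fell. Zbtb46, a zinc finger factor of dendritic and endothelial cells, fell by 1.02 in both genotypes, and Tsc22d1, a relative of GILZ, fell by 0.74 in WT and by 0.96 in KO. In the retina, 0 of 24 passed in WT and 1 rose in KO, Tsc22d4, by 0.60.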
